A study of Macaca fascicularis with 20 samples.

Results

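NR4A2, ATF3, ZFP36, KLF6 and PPP1R15A were followed across splenic natural killer (NK) cell subsets and B cells of the cynomolgus macaque, Macaca fascicularis. These 5 genes belong to the immediate early class, and other genes of the class were also matched to a probe. Array probes were named through the transcript accession, by the RefSeq annotation of the species (assembly T2T-MFA8v1.1, used for names only). The set made up 5 of 12530 genes matched to a probe and 5 of 12192 tested over the NK arrays. In all 9 probes stood for it (3 for NR4A2, 2 each for ATF3 and PPP1R15A, 1 each for ZFP36 and KLF6). The genes were picked with their differences between the sorted populations and their correlation already known. Both are therefore given as a description of these arrays, and no test of them counts as support.

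Immediate early genes are transcribed within minutes of a stimulus from factors already present in the cell, and their mRNAs are usually short-lived. In lymphocytes they are best known as the first wave of transcription after receptor, cytokine or stress signals, and also as genes that tissue dissociation and handling can switch on. Their products act at several levels. NR4A2 is an orphan nuclear receptor, ATF3 is a stress-induced basic leucine zipper factor, and KLF6 is a zinc-finger factor of the Krüppel-like family. ZFP36 (tristetraprolin) binds AU-rich elements of cytokine mRNAs and recruits the deadenylase machinery. PPP1R15A (GADD34) brings protein phosphatase 1 to the translation initiation factor eIF2 and so ends the translational block of the integrated stress response.

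The study sorted NK cells from thawed, cryopreserved spleen cells without stimulation and hybridised 20 one-colour Agilent arrays. The NK gate was live, CD45+, negative for CD3, CD14, CD20 and HLA-DR, and positive for NKG2A and CD8a. The 4 subsets were taken from it by CD27 and CD11b: CD27 single positives (CD27+CD11blo, 4 arrays), double positives (CD27+CD11b+, 5 arrays), CD11b single positives (CD27loCD11b+, 5 arrays) and double-low cells (CD27loCD11blo, 4 arrays). B cells (CD20+HLA-DR+, negative for NKG2A and CD8a) gave 2 arrays. No group carries a genetic change or a treatment. Replicate 1 of each NK subset came from a male of 4 years from Cambodia, and replicates 2 and 3 came from males from Vietnam, the second with no age given and the third listed at 9, 10, 11 or 12 years depending on the subset. The remaining NK arrays came from a female of 18 years and a male of 5 years from Singapore, and the B cell arrays from females of 5 and 18 years from Singapore. The labels call the replicates biological but name no animal, so arrays of different subsets may share one.

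Levels below are log2 processed signals minus the array's own 75th percentile, so a level of 0 is as bright as that percentile, and a level of one probe says nothing of that of another. On 18 arrays the 75th percentile lay between 578.2 and 1897 units. On double-low replicate 4 it was 199.6 units and on double-positive replicate 4 it was 180.0 units. Values over all arrays of their groups include these 2 dim arrays. CD27 mRNA lay between 3.66 and 4.87 on the 9 CD27+ arrays and between 2.31 and 3.20 on 7 of the 9 CD27lo arrays. Replicate 4 of the double-low cells (4.88) and replicate 4 of the CD11b single positives (3.83) were not below the CD27+ arrays, which goes against their label at the mRNA level. Against B cells the defining NK genes were in place: all 9 tested NK markers were higher in NK cells, with a median log2 difference of 5.44, and all 7 B cell markers were lower, with a median of -4.27. Among NK subsets the mean level of the NK markers was lowest in double-low cells, at 0.70 ± 0.81 (SD). It was 1.35 ± 0.20 in CD27 single positives, 1.86 ± 0.32 in double positives and 1.79 ± 0.42 in CD11b single positives. Its part in the differences of the 5 genes was not tested. Each of the 5 genes was well above the local background on all 20 arrays except PPP1R15A on double-low replicate 4, and 0 of the 180 spots of the 5 genes were saturated. Bulk RNA cannot tell fewer expressing cells from less RNA per cell.

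NR4A2, the nuclear receptor, was mostly higher on the CD27+ arrays. Its levels were 2.68, 3.81, 1.20 and 3.12 on the CD27 single-positive arrays and 1.99, 3.46, 0.27, 1.01 and 2.92 on the double-positive arrays. They were -1.30, 1.73, -0.083, 1.82 and -1.68 on the CD11b single-positive arrays, 0.021, 1.09, 0.76 and 0.97 on the double-low arrays, and 1.41 and 1.30 on the B cell arrays. Of the 9 CD27+ arrays 6 lay above every CD27lo array, and the 4 CD27 single-positive arrays lay above all 4 double-low arrays, a full separation of these subsets that 3.73% of all genes had. CD27 single positives averaged 2.70 ± 1.1 (SD over 4 arrays) and double positives 1.93 ± 1.32 (5 arrays). CD11b single positives averaged 0.097 ± 1.64 (5 arrays), double-low cells 0.71 ± 0.48 (4 arrays) and B cells 1.35 ± 0.073 (2 arrays). In the order of the group means, only B cells and double-low cells, as neighbours, were further apart than the larger SD of the pair. The 3 probes of NR4A2 gave the same picture, with Pearson r between 0.994 and 0.995 over the 18 NK arrays.

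ATF3, the stress-induced factor, varied more between slides, and between inferred donor labels, than between subsets. It stood at 0.32, 0.65, -1.74 and -1.56 on the CD27 single-positive arrays and at -0.66, 0.40, -3.67, -3.09 and -2.18 on the double-positive arrays. The CD11b single-positive arrays had -2.59, -1.14, -2.85, -3.57 and -4.33, the double-low arrays -2.02, -0.62, -2.04 and -3.02, and the B cell arrays -1.86 and -3.08. In every NK subset replicate 2, from a male from Vietnam and on slide 1, was the highest array. Of the spread of ATF3 over NK arrays, 57.8% lay between slides, 61.7% between donor labels (a grouping of arrays made here from the listed origin, sex and age and the replicate number) and 32.6% between subsets, against 15.3%, 25.6% and 21.9% for the median gene. Slides and donor labels overlap, and their separate parts were not tested. The means were -0.58 ± 1.24 in CD27 single positives, -1.84 ± 1.69 in double positives, -2.90 ± 1.19 in CD11b single positives, -1.92 ± 0.99 in double-low cells and -2.47 ± 0.86 in B cells (SD, n as above), and no neighbours in the order of levels were further apart than the larger SD. The other ATF3 probe followed this one with r = 0.96, with a gap of up to 1.38 on the log2 scale. That largest gap was on the dim double-positive replicate 4, where the other probe was not well above background.

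KLF6, the Krüppel-like factor, was nearly level in 3 of the 4 NK subsets. Its levels were 3.61, 2.76, 3.32 and 3.22 in CD27 single positives and 3.21, 3.03, 3.17, 3.09 and 2.45 in double positives, a tight pair of groups. The CD11b single positives spread over 2.25, 1.97, 3.83, 3.39 and 2.79, the double-low cells had 1.51, 1.80, 3.29 and -1.39, and the B cells had 4.38 and 3.22. None of the 9 CD27+ arrays lay above every CD27lo array, since CD11b single-positive replicate 3 was higher than all of them. The means were 3.23 ± 0.35 (SD) in CD27 single positives, 2.99 ± 0.31 in double positives, 2.85 ± 0.77 in CD11b single positives, 1.30 ± 1.96 in double-low cells and 3.80 ± 0.82 in B cells. The wide spread in double-low cells came with 1 array, the dim replicate 4, and without it their mean was 2.2 ± 0.95 (n = 3). No neighbours in the order of the group means were further apart than the larger SD.

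ZFP36, the mRNA decay factor, had the narrowest spread of the 5, with an SD of 0.77 over the 18 NK arrays. Its levels were 5.18, 4.63, 4.16 and 5.10 in CD27 single positives, 4.30, 4.54, 3.56, 4.43 and 4.58 in double positives, 2.54, 3.21, 4.03, 4.60 and 2.83 in CD11b single positives, 3.09, 3.52, 3.97 and 3.27 in double-low cells, and 4.94 and 4.53 in B cells. Of the 9 CD27+ arrays 8 were above the median of the NK arrays, against 1 of the 9 CD27lo arrays. The CD27 single positives lay above the double-low cells without overlap, as for NR4A2 and 3.73% of all genes. The means were 4.77 ± 0.47 in CD27 single positives, 4.28 ± 0.42 in double positives, 3.44 ± 0.85 in CD11b single positives, 3.47 ± 0.38 in double-low cells and 4.74 ± 0.29 in B cells (SD). The gap of 0.82 between double positives and double-low cells, and that of 0.45 between B cells and double positives, were larger than the SD of either group. Subset accounted for 53.6% of the spread of ZFP36, the highest share among the 5.

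PPP1R15A, the phosphatase cofactor, stood at 2.91, 1.56, 1.09 and 1.15 in CD27 single positives and at 1.52, 1.62, 0.14, 0.74 and 2.64 in double positives. It stood at -0.30, -0.10, 0.073, 1.19 and 0.48 in CD11b single positives, at 0.0046, 0.010, 1.01 and -6.26 in double-low cells, and at 2.29 and 2.10 in B cells. The 4 CD27 single-positive arrays lay above all 4 double-low arrays, as for 3.73% of all genes, and 5 of the 9 CD27+ arrays lay above every CD27lo array. The margin between these 2 subsets was narrow, with the lowest CD27 single-positive array at 1.09 and the highest double-low array at 1.01. The value of -6.26 on double-low replicate 4 is a floor and not a level: both PPP1R15A probes had 2.60 units there, the lowest signal on that array, which 5.58% of its probes shared. The means were 1.68 ± 0.85 in CD27 single positives, 1.33 ± 0.95 in double positives, 0.27 ± 0.59 in CD11b single positives, -1.31 ± 3.34 in double-low cells (0.34 ± 0.58 without replicate 4) and 2.19 ± 0.13 in B cells (SD). Of the neighbours in that order, double positives and CD11b single positives were further apart, by 1.06, than the larger SD of the pair.

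**Figure D1:**
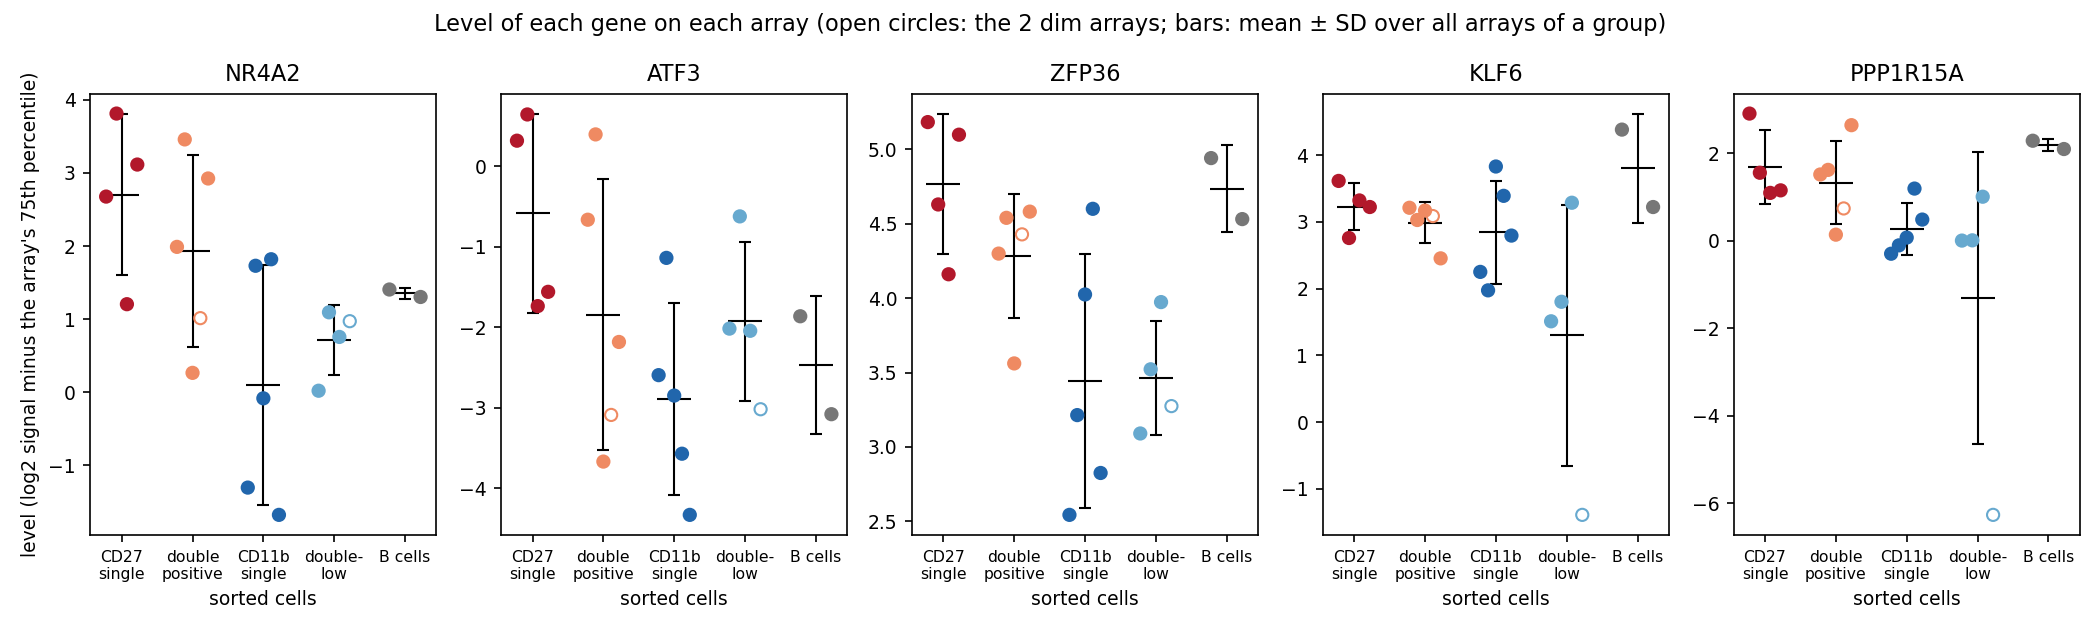
Level of each of the 5 genes (log2 signal scaled to the array's 75th percentile, vertical axis, 1 scale per gene) on each array, grouped by sorted population; open circles mark the 2 dim arrays and bars show the mean ± SD over all arrays of a group. NR4A2 and ZFP36 sit higher in both CD27+ subsets, and KLF6 and PPP1R15A in double-low cells are pulled down by replicate 4 at -1.39 and -6.26.

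The comparison of CD27+ with CD27lo NK cells, with CD11b balanced, sets cells that carry CD27 against cells with little of it. All 5 genes were higher on average in CD27+ cells. The log2 difference was 1.91 ± 0.55 (SE, 9 arrays against 9) for NR4A2, a 3.77-fold difference. It was 2.02 ± 0.73 for PPP1R15A, or 4.07-fold, 1.20 ± 0.59 for ATF3, or 2.30-fold, 1.07 ± 0.28 for ZFP36, or 2.10-fold, and 1.03 ± 0.45 for KLF6, or 2.05-fold. The median of all genes tested was -0.37, on the other side of 0. None of the 5 passed: limma's adjusted p lay between 0.196 and 0.229. In this comparison 0 of 12192 genes passed at an adjusted p under 0.05 (0%), and 2711 had an unadjusted p under 0.05, with 6.41% of all genes higher and 15.8% lower. The genes were chosen on this contrast, so nothing is read from their count of 5 above 0, set against 33.9% of all genes.

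The dim double-low replicate 4 carried much of the difference for PPP1R15A and KLF6. Without it the CD27 difference was 1.20 for PPP1R15A and 0.59 for KLF6, while NR4A2 stood at 1.96, ZFP36 at 1.04 and ATF3 at 1.02. Without CD11b single-positive replicate 4, the other array with CD27 mRNA in the CD27+ range, the 5 differences lay between 1.1 and 2.14. The slides differed more. Within slide 1 (8 NK arrays) the difference was 2.60 for NR4A2, 2.0 for PPP1R15A, 1.77 for ATF3, 1.57 for ZFP36 and 1.27 for KLF6. Within slide 2 (6 NK arrays) it was 0.82 for NR4A2, 1.91 for PPP1R15A, 0.031 for ATF3, 0.27 for ZFP36 and 0.83 for KLF6. The slide 2 values of PPP1R15A and KLF6 rest on the dim double-low replicate 4, at -6.26 and -1.39. Among the replicate 3 arrays of slide 2, CD27 single positives minus double-low cells gave 0.087 for PPP1R15A and 0.034 for KLF6. Double positives minus CD11b single positives gave 0.067 and -0.66 there. Slide 3 held only double positives and CD11b single positives, and there the difference was 1.90 for NR4A2, 1.32 for ATF3, 0.85 for PPP1R15A, 0.79 for ZFP36 and -0.32 for KLF6. All 5 genes were above 0 under every one of the settings tried for the CD27 comparison over all subsets. Limma's array weights called 4383 of 12192 genes in the CD27 comparison (936 higher and 3447 lower). Among them were NR4A2 (adjusted p = 0.0111), ZFP36 (0.0118) and PPP1R15A (0.0231), and not ATF3 (0.0501) or KLF6 (0.21). With so many genes called, nothing is read from these calls. Over all the alternatives the adjusted p of the 5 genes lay between 0.0111 and 0.355.

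CD27 single positives against CD11b single positives set the ends of the sort side by side. NR4A2 stood 2.61 ± 0.77 higher (SE, 4 arrays against 5), ATF3 2.31 ± 0.83, PPP1R15A 1.41 ± 1.03 and ZFP36 1.33 ± 0.40, while KLF6 differed by 0.38 ± 0.64. The groups overlapped for every gene: of the 4 CD27 single-positive arrays 3 lay above all CD11b single positives for NR4A2 and ZFP36, 2 for ATF3 and PPP1R15A and 0 for KLF6. The adjusted p lay between 0.812 and 0.877, and again 0 of 12192 genes passed (0%; 644 at an unadjusted p under 0.05, 2.90% of all higher and 2.38% lower). Arrays were also matched by donor label, which joins replicate 3 arrays of unlike listed age and, for the female of 18 years, arrays of unlike number. Over these 4 pairs the difference was 1.29 to 4.79 for NR4A2, 1.11 to 2.91 for ATF3 and 0.14 to 2.64 for ZFP36. It was 0.67 to 3.20 for PPP1R15A and -0.51 to 1.36 for KLF6. Within slide 1 the KLF6 difference was 1.07 and within slide 2 it was -0.56. Without CD11b single-positive replicate 4 the differences were 3.04 for NR4A2, 2.15 for ATF3, 1.62 for ZFP36, 1.64 for PPP1R15A and 0.52 for KLF6.

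Against double-low cells, CD27 single positives stood higher by 1.99 ± 0.82 for NR4A2, 1.34 ± 0.87 for ATF3, 1.30 ± 0.42 for ZFP36, 1.93 ± 0.67 for KLF6 and 2.99 ± 1.08 for PPP1R15A (SE, 4 arrays each; adjusted p between 0.374 and 0.396; 0 of 12192 genes, 0%, with 1566 at an unadjusted p under 0.05). Over 4 pairs matched by the inferred donor label, the difference was 0.45 to 2.72 for NR4A2 and 0.31 to 2.34 for ATF3. It was 0.19 to 2.09 for ZFP36, 0.034 to 4.61 for KLF6 and 0.087 to 7.42 for PPP1R15A. For KLF6 and PPP1R15A the highest value came from the dim double-low replicate 4 and the lowest from replicate 3. Leaving out double-low replicate 4 brought PPP1R15A to 1.34 and KLF6 to 1.03, and left NR4A2 at 2.08. CD27 single positives and double positives, which differ in the sort by CD11b, stood closer: the differences were 0.77 ± 0.77 for NR4A2, 1.26 ± 0.83 for ATF3, 0.49 ± 0.40 for ZFP36, 0.24 ± 0.64 for KLF6 and 0.35 ± 1.03 for PPP1R15A (SE; adjusted p = 0.9999 for each; 0 of 12192 genes, 0%, with 295 at an unadjusted p under 0.05).

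Double positives against CD11b single positives, which differ in the sort by CD27 alone, showed 1.83 ± 0.73 for NR4A2, 1.06 ± 0.78 for ATF3, 0.84 ± 0.38 for ZFP36, 0.14 ± 0.60 for KLF6 and 1.06 ± 0.97 for PPP1R15A (SE, 5 arrays each; adjusted p between 0.783 and 0.949). Within slide 2 this pair had 1 array of each, and ATF3, KLF6 and ZFP36 were at -0.82, -0.66 and -0.46. Without CD11b single-positive replicate 4 the 5 differences lay between 0.28 for KLF6 and 2.26 for NR4A2. Against double-low cells, double positives stood at 1.22 ± 0.77 for NR4A2, 0.084 ± 0.83 for ATF3, 0.82 ± 0.40 for ZFP36, 1.69 ± 0.64 for KLF6 and 2.64 ± 1.03 for PPP1R15A (adjusted p between 0.191 and 0.956). Without the 2 dim arrays KLF6 was at 0.77 and PPP1R15A at 1.14 in that comparison. Between the 2 CD27lo subsets, CD11b single positives were at -0.61 ± 0.77 for NR4A2, -0.97 ± 0.83 for ATF3 and -0.024 ± 0.40 for ZFP36 against double-low cells, and at 1.54 ± 0.64 for KLF6 and 1.58 ± 1.03 for PPP1R15A. Without double-low replicate 4 the last 2 were 0.65 and -0.071. In each of these 3 comparisons 0 of 12192 genes passed (0%; 723, 2562 and 438 at an unadjusted p under 0.05).

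**Figure D2:**
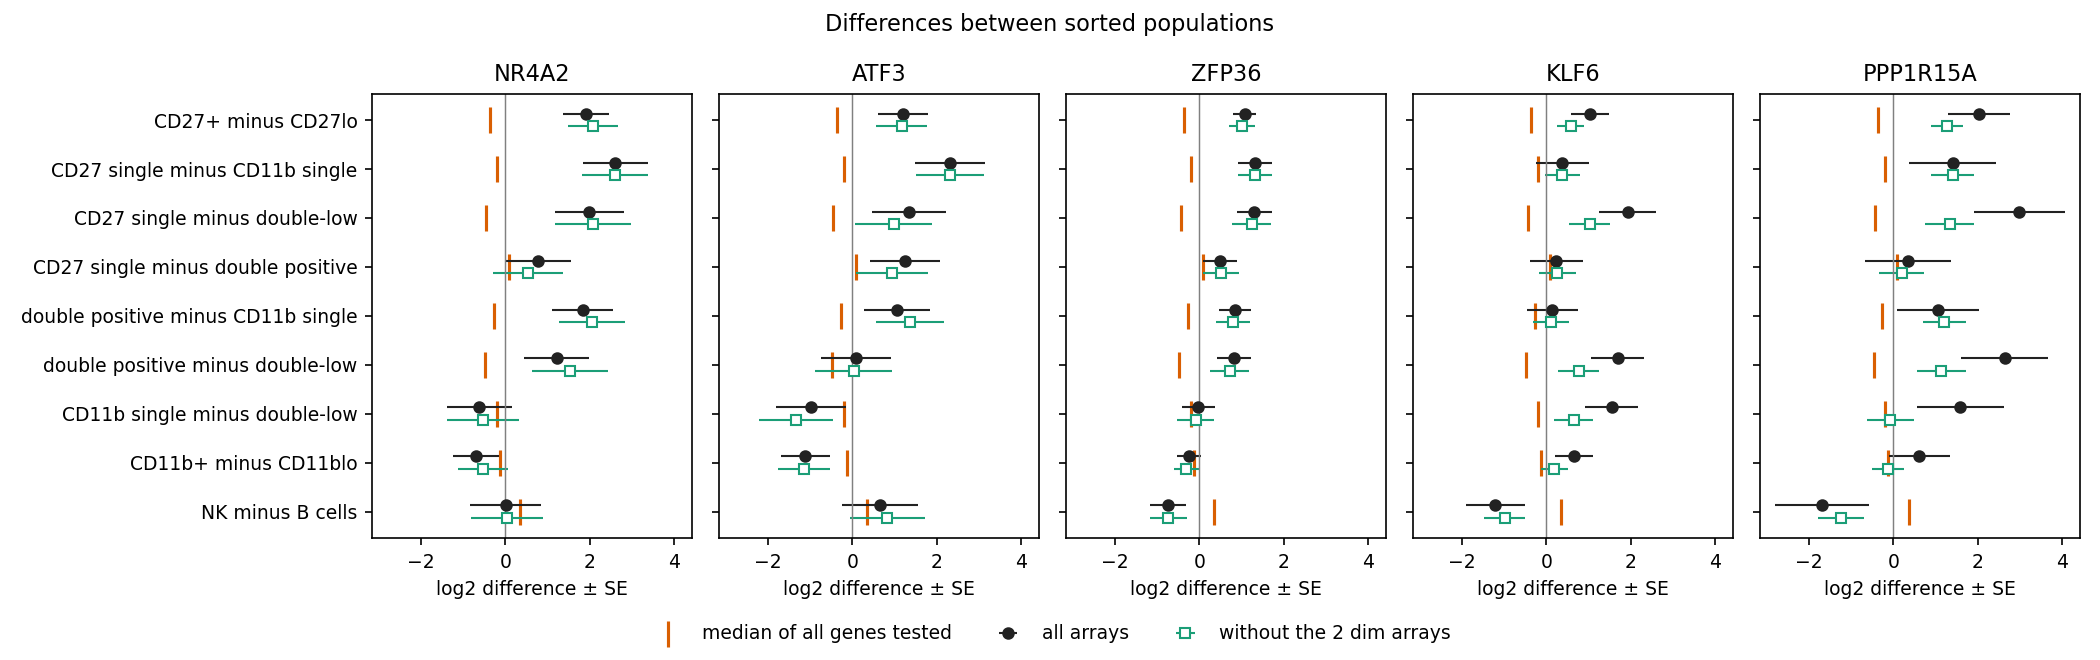
Log2 difference ± SE (horizontal axis) of the 5 genes for 9 comparisons of sorted populations (rows), over all arrays (filled circles) and without the 2 dim arrays (open squares), with the median of all genes tested as a bar. KLF6 and PPP1R15A move most when the dim arrays are left out, from 1.03 to 0.57 and from 2.02 to 1.27 in the CD27 comparison.

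CD11b, with CD27 balanced, separated the genes less. CD11b+ minus CD11blo cells gave -1.11 ± 0.59 for ATF3, -0.69 ± 0.55 for NR4A2, -0.25 ± 0.28 for ZFP36, 0.62 ± 0.73 for PPP1R15A and 0.65 ± 0.45 for KLF6 (SE, 10 arrays against 8), and without double-low replicate 4 PPP1R15A was at -0.21. None of the 5 was among the 2 genes of 12192 that passed (0.0164%), and the adjusted p lay between 0.946 and 0.949. Whether the CD27 difference itself depended on CD11b was tested as an interaction. The difference among CD11blo cells minus that among CD11b+ cells was 1.93 ± 1.46 for PPP1R15A, 1.78 ± 0.90 for KLF6, 0.46 ± 0.57 for ZFP36, 0.29 ± 1.17 for ATF3 and 0.16 ± 1.09 for NR4A2, with adjusted p = 0.9997 for each and 0 of 12192 genes called (0%; 175 at an unadjusted p under 0.05). Without the 2 dim arrays it was 0.13 for PPP1R15A and 0.91 for KLF6.

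NK cells as a whole were set against B cells to place these levels beside another splenic lymphocyte. NR4A2 differed by 0.0056 ± 0.84 and ATF3 by 0.66 ± 0.91, while ZFP36 was at -0.75 ± 0.43, KLF6 at -1.21 ± 0.70 and PPP1R15A at -1.70 ± 1.11 (SE, 18 arrays against 2). None of them was among the 362 of 12388 genes that passed (2.92%), with adjusted p between 0.292 and 0.997. The median of all genes was 0.36. B cells had the highest group mean for KLF6 and PPP1R15A, and CD27 single positives had it for NR4A2, ATF3 and ZFP36, where for ZFP36 the 2 groups differed by only 0.032. Limma's array weights called 5833 of 12388 genes here. Among them were ZFP36 (-0.68, adjusted p = 0.0213), KLF6 (-1.07, 0.0387) and PPP1R15A (-1.40, 0.0318). With so many genes called, nothing is read from these calls.

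Across the 18 NK arrays the 5 genes varied together, but not as one block. The mean Pearson r over their 10 pairs was 0.50, with a range of 0.12 to 0.85, and the mean over all pairs of genes was 0.054. NR4A2 ran with ZFP36 (r = 0.82, Spearman rho = 0.82) and with ATF3 (r = 0.72, rho = 0.69). KLF6 and PPP1R15A had r = 0.85 (rho = 0.53), which rested largely on double-low replicate 4, where PPP1R15A was at its floor. KLF6 shared little with NR4A2 (r = 0.14, rho = 0.14) or ATF3 (r = 0.12, rho = -0.057). ZFP36 stood between, at 0.51 with KLF6, 0.57 with PPP1R15A and 0.46 with ATF3. These coefficients are over arrays that share slides and scaling and may share animals, and they describe the arrays.

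The dim double-low replicate 4, with its floor value of PPP1R15A, changed which pairs stood out. Without that array alone KLF6 and PPP1R15A were at r = 0.42, ZFP36 and PPP1R15A at 0.80 and NR4A2 and PPP1R15A at 0.71. Without the dim double-positive replicate 4 alone these pairs were at 0.85, 0.57 and 0.39. Without both dim arrays (16 arrays) KLF6 and PPP1R15A were at r = 0.43 (rho = 0.44), ZFP36 and PPP1R15A at 0.82 and NR4A2 and PPP1R15A at 0.71. ATF3 and KLF6 were then at -0.075, while NR4A2 and ZFP36 were at 0.84. The mean over pairs was then 0.52. On ranks, which limit the pull of 1 array, the ZFP36 and PPP1R15A pair had the highest rho over all 18 arrays, 0.86, followed by NR4A2 and ZFP36 at 0.82 and NR4A2 and PPP1R15A at 0.75. On ranks, and without the dim arrays, PPP1R15A ran closer with ZFP36 and NR4A2 than with KLF6. Within slide 1 all pairs lay between 0.62 and 0.96, with a mean of 0.83. Within slide 2, which holds the dim double-low replicate 4, the mean was 0.53 and the range -0.031 to 0.97. The highest was KLF6 with PPP1R15A, whose rho there was 0.26. Part of the covariation was the difference between subsets: with each subset's mean taken out the mean r was 0.35, and among the 9 CD27+ arrays alone it was 0.38, against 0.23 among the 9 CD27lo arrays. With the mean of each inferred donor label taken out instead, the mean r was higher, 0.65, with a range of 0.34 to 0.93.

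**Figure D3:**
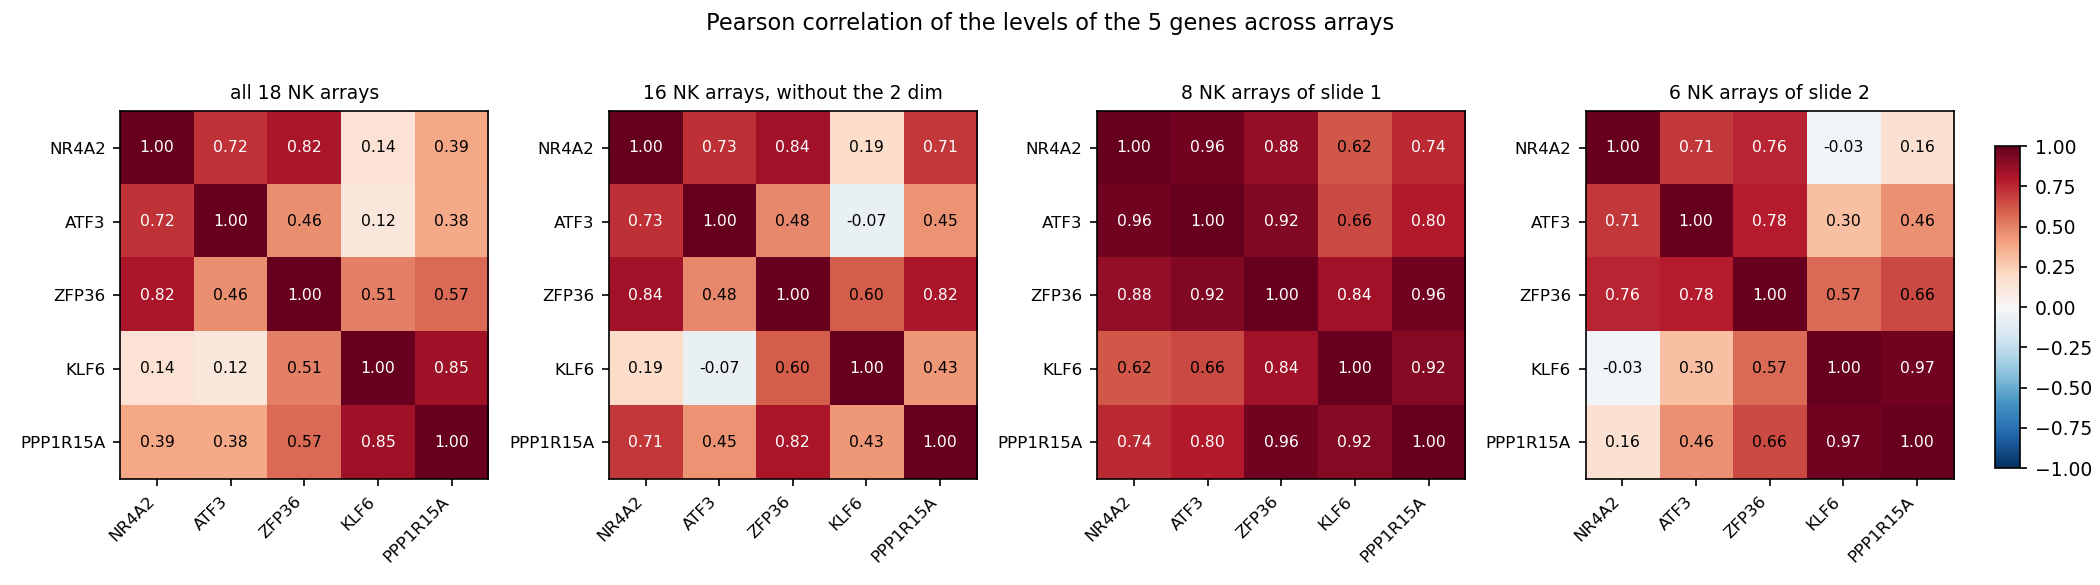
Pearson r between the levels of the 5 genes (colour and printed value) over all 18 NK arrays, the 16 without the 2 dim arrays, the 8 of slide 1 and the 6 of slide 2. The KLF6 and PPP1R15A pair is at 0.85 over all arrays and 0.43 without the 2 dim ones, while ZFP36 and PPP1R15A are at 0.57 and 0.82.

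**Figure D4:**
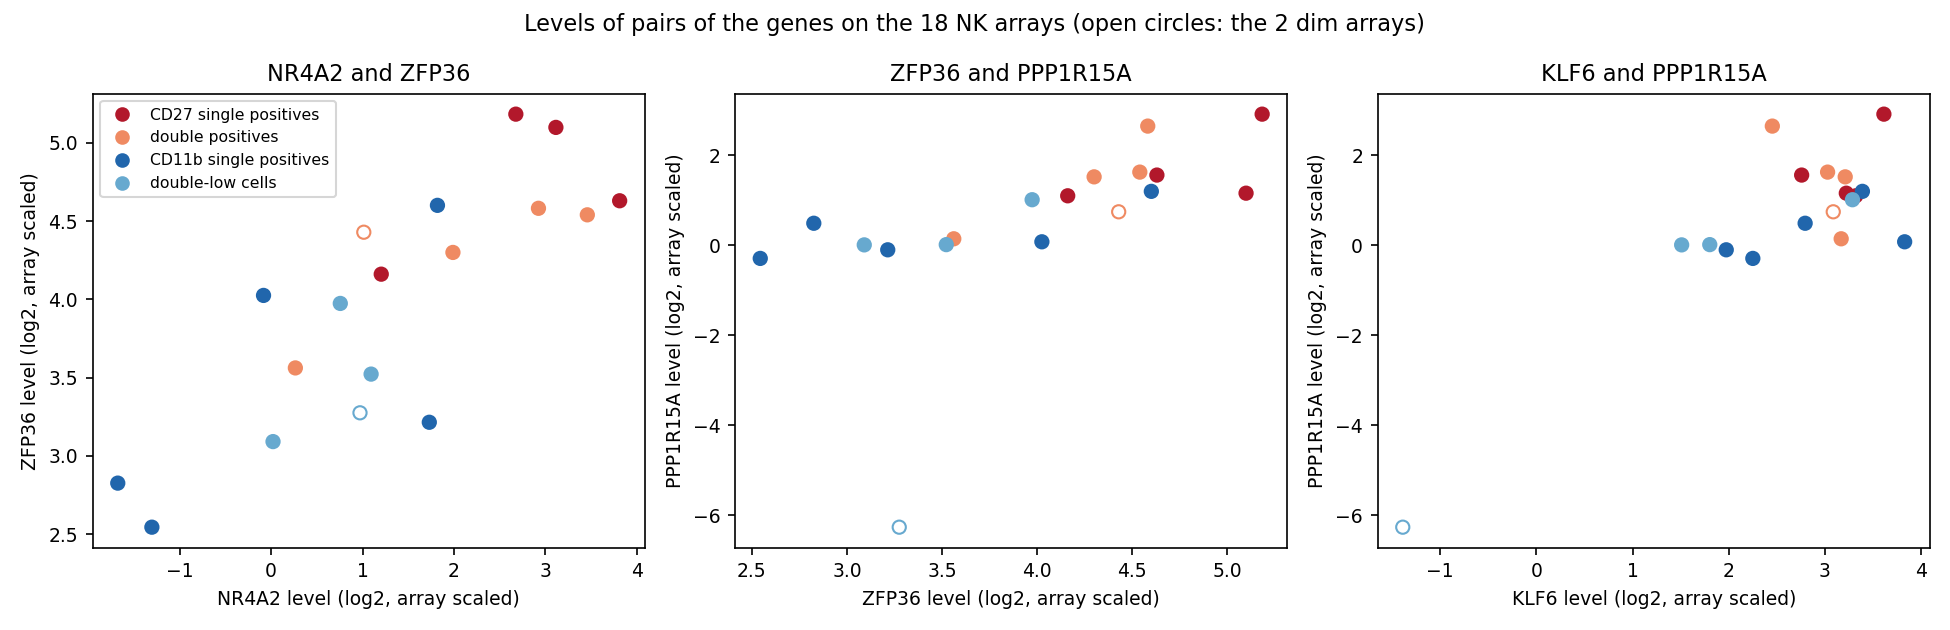
Levels (log2, array scaled) of NR4A2 and ZFP36, of ZFP36 and PPP1R15A, and of KLF6 and PPP1R15A on the 18 NK arrays, coloured by subset, with the 2 dim arrays as open circles. NR4A2 and ZFP36 climb together over the whole range, whereas the array at -6.26 lies apart from all others in the panels of PPP1R15A.

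Over all NK arrays the levels also moved with the brightness of the array. The correlation of a gene's scaled level with the log2 75th percentile over the 18 NK arrays was 0.36 for NR4A2 and ZFP36, 0.49 for ATF3, 0.58 for KLF6 and 0.66 for PPP1R15A, against a median of -0.13 over all genes. Without the 2 dim arrays it lay between 0.47 and 0.68, and within slide 1 between 0.73 and 0.84. It was not so in every set of arrays: within slide 2 it was -0.14 for NR4A2 and 0.35 to 0.96 for the other genes, and among the CD27+ arrays it was -0.016 for KLF6, 0.036 for ZFP36 and 0.40 to 0.56 for the other 3. Slide 2 holds the dim double-low replicate 4. There KLF6 was at r = 0.96 (rho = 0.77) and PPP1R15A at r = 0.94 (rho = 0.37). Among the CD27lo arrays, which also include that dim array, r was 0.89 for PPP1R15A and 0.87 for KLF6 (rho = 0.67 for each). It was 0.55 for ZFP36 (rho = 0.75), 0.30 for ATF3 and 0.21 for NR4A2. The CD27+ arrays had a median 75th percentile of 1335 units and the CD27lo arrays one of 914.8 units. The part of array brightness in the CD27 difference was not tested.

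The genes most like the mean of the 5 over the 18 NK arrays, among 7652 genes well above background on all of them, were TOP1 (r = 0.92), which encodes a DNA topoisomerase, the phosphatase gene PRUNE1 (0.92) and SPTY2D1 (0.91). They were followed by ATP5PO, PDCD4, EPC1, GLUD1, CCNG2, LOC102121636 and CLK4, down to r = 0.87, and without the 2 dim arrays the 10 stood between 0.81 and 0.91. NR4A2 was most like ZFP36L2 (0.92), a paralog of ZFP36 that also binds AU-rich elements, then CD46 (0.91) and HIPK1 (0.87). ATF3 was most like LYSMD2 (0.94), TBC1D8 (0.85) and NEU1 (0.84). ZFP36 was most like the splicing factor gene SRSF5 (0.91), PCBP1 (0.90) and LPXN (0.90). KLF6 and PPP1R15A shared SENP7, a SUMO protease gene, at 0.88 and 0.93, and at 0.50 and 0.67 without the 2 dim arrays. The other genes nearest KLF6 were ABRACL (0.91, or 0.65 without the dim arrays) and PLEK (0.89, or 0.74), and those nearest PPP1R15A were LOC102125831 (0.93, or 0.71) and PHF1 (0.91, or 0.72).

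Other genes of the same programmes leaned the same way in the CD27 comparison, and 0 of them passed. Of all genes tested 33.9% were above 0 in this comparison. Of 19 other immediate early transcription factor genes tested, 16 were above 0, with a median log2 difference of 0.67 beside -0.37 for all genes. The 3 below 0 were EGR4 at -0.67 ± 0.28, FOSL1 at -0.47 ± 0.28 and JUNB. The members with the lowest p between CD27 and CD11b single positives were CSRNP1 (1.53 ± 0.55 in the CD27 comparison), CREM (1.66 ± 0.70), a cAMP-responsive factor, KLF10 (1.66 ± 0.47) and MAFF (1.89 ± 0.69). The AP-1 genes that head most such lists stood closer to 0, with FOS at 0.27 ± 0.27, FOSB at 0.26 ± 0.30, JUN at 0.52 ± 0.59 and JUNB at -0.44 ± 0.33; they were named after their values were seen. NR4A1, the paralog of NR4A2, was at 1.31 ± 0.52, with means of 2.08 ± 1.16 in CD27 single positives, 2.12 ± 1.23 in double positives, 0.97 ± 0.85 in CD11b single positives, 0.60 ± 1.54 in double-low cells and 2.14 ± 0.80 in B cells (SD). Of 26 feedback regulators of signalling, 23 were above 0, with a median of 0.97, among them the MAP kinase phosphatase gene DUSP5 (0.85 ± 0.25), the G protein regulator genes RGS2 (1.21 ± 0.49) and RGS1 (0.27 ± 0.42), and the antiproliferative gene BTG1 (1.20 ± 0.36).

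Lists of genes linked to each protein, as partners, targets, pathway members or paralogs, differed from one another. The share above 0 over all genes was 33.9%. For ZFP36, 14 of 17 genes of mRNA decay were above 0, with a median of 0.61. They included ZFP36L2 at 1.15 ± 0.32, the AU-rich element binding protein gene HNRNPD at 1.02 ± 0.31 and the deadenylase subunit gene CNOT9 at 0.74 ± 0.44, while TNKS1BP1 was at -0.41 ± 0.45. Of 7 mRNAs known as ZFP36 targets 3 were above 0, with a median of -0.14: MYC at 0.94 ± 0.58, the chemokine gene CCL3 at 0.72 ± 0.30 and IER3 at 0.46 ± 0.82, against IL6 at -0.56 ± 0.33. For PPP1R15A, 10 of 15 genes of the integrated stress response were above 0, with a median of 0.42. The eIF2 kinase gene EIF2AK3 stood at 2.23 ± 0.72, SESN2 at 2.36 ± 1.24, the chaperone gene HSPA5 at 0.82 ± 0.37 and HERPUD1 at 0.70 ± 0.43, whereas the constitutive counterpart PPP1R15B was at 0.42 ± 0.63 and DDIT3 at 0.052 ± 0.40, both named after their values were seen. For KLF6, 6 of 9 other Krüppel-like factor genes were above 0, with a median of 0.52, from KLF4 at 2.29 ± 0.88 through KLF3 at 1.23 ± 0.61 to KLF1 at -1.02 ± 0.44. NR4A1, KLF4, KLF10, ATF4, MYC and IER3 count in more than 1 of these lists.

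**Figure D5:**
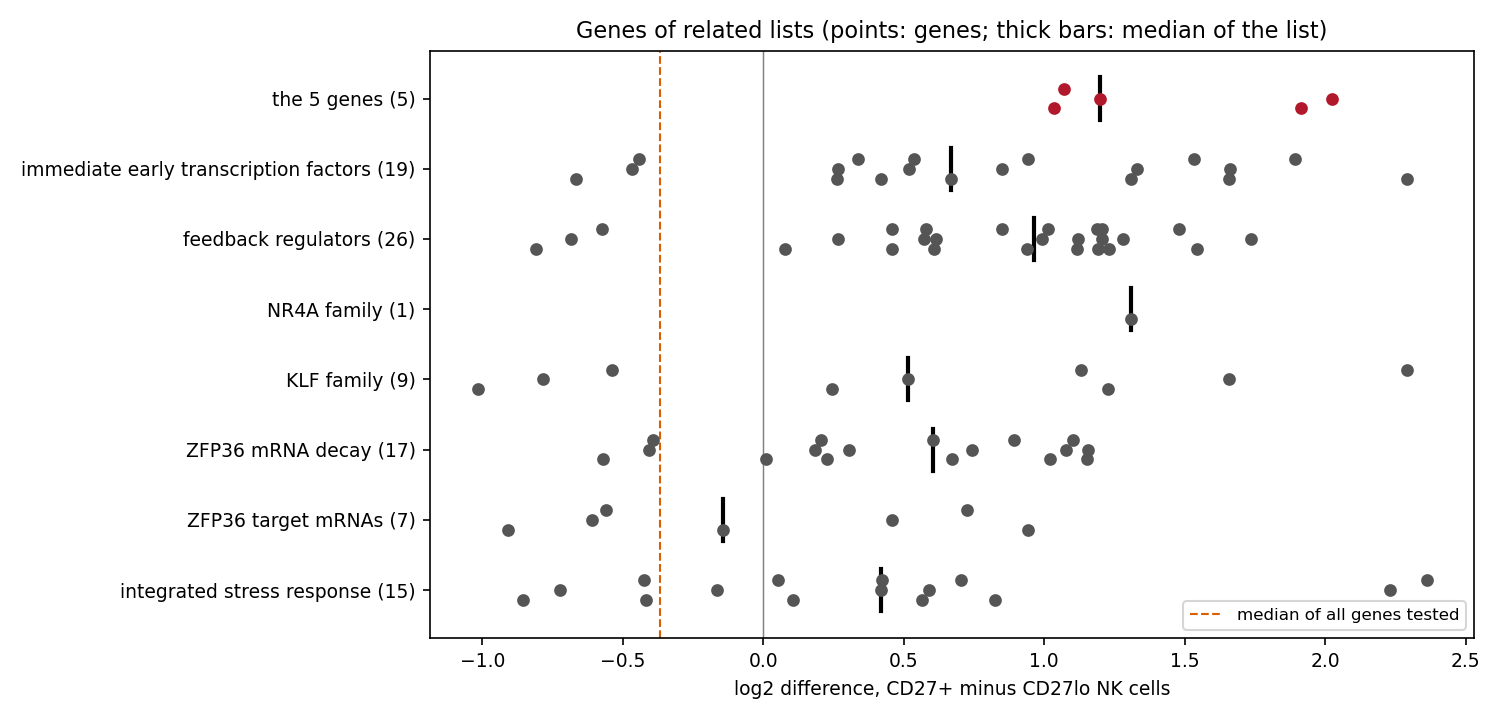
Log2 difference between CD27+ and CD27lo NK cells (horizontal axis) of each gene in the related lists (rows, with the number of genes tested), the median of each list as a thick bar, and the median of all genes at -0.37 as a dashed line. The median is 1.20 for the 5 genes, 1.31 for the NR4A family (NR4A1 alone) and -0.14 for the ZFP36 target mRNAs.

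Markers of several other cell types were lower in CD27+ cells on average, as were most genes, with 33.9% of all genes above 0. Monocyte and macrophage markers had a median of -0.52 (1 of 9 above 0), neutrophil markers -0.62 (0 of 5), dendritic cell markers -0.77 (0 of 5) and stromal and endothelial markers -0.75 (1 of 8), beside -0.37 for all genes, and B cell markers had -0.57 (1 of 7). Erythroid markers had -0.80 (0 of 2) and platelet markers -0.53 (0 of 3), while plasma cell markers had 0.027 (2 of 4). The mean level of the monocyte list lay between -1.67 and -1.05 in CD27 single positives, -2.61 and -0.86 in double positives, -1.36 and -0.87 in CD11b single positives, and -1.03 and -0.63 in double-low cells. T cell markers had a median of 0.088 (3 of 4 above 0), with mean levels between 0.44 and 1.5 in CD27 single positives, -0.080 and 0.92 in double positives, -0.19 and 0.99 in CD11b single positives and -0.046 and 0.94 in double-low cells. The part of other cell types in the differences of the 5 genes was not tested.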

How the data were processed

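RNA (50 ng input) was amplified and 400 ng of product labelled with Cy3, per the labels' protocols. The deposited scanner files give processed intensity values from Agilent Feature Extraction (10.7.1.1, per the submitters' processing notes), and the authors also deposited a log2 matrix, used as an alternative, with scale and centring unstated (each column has a median of 8.02). Of 58659 probes, 34.8% matched a gene by accession. Outlier spots were left out, the log2 intensity was scaled to the 75th percentile of each array, and the brightest probe stood for a gene. Genes well above background on at least 4 NK arrays (at least 2 of all arrays for NK against B cells) were tested with limma 3.58.1 in R 4.3.3 (group means, trend and robust eBayes, Benjamini-Hochberg, threshold 0.05). The fit was also run on simulated data whose residuals were shuffled between arrays gene by gene. That shuffling removes array-wide differences such as those of the 2 dim arrays, so the simulation cannot test their effect. Precision is set by how many arrays each group holds. The members, gene lists and comparisons were chosen with earlier results of these data known. From each list up to 4 genes were named by lowest p between CD27 and CD11b single positives, and for likeness the 10 genes nearest the mean of the 5 and 3 per gene. p-values measure the spread between these arrays.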

Additional observations from a re-analysis of the deposited data

Results flagged for a closer look

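Among 20 groups of arrays (5 genes in 4 NK subsets) 3 had an array set apart from the rest of its group by Dixon's ratio, where chance sets about 1 in 20 groups apart. PPP1R15A on double-low replicate 4 was at -6.26, a gap of 0.862 of the range of its 4 arrays, and this array is dim and at its lowest signal for that gene. KLF6 on double-positive replicate 5 was at 2.45 (0.758 of the range of 5 arrays), and ZFP36 on double-positive replicate 3 was at 3.56 (0.724). The last array also had the lowest ATF3, NR4A2 and PPP1R15A of the double positives, at -3.67, 0.27 and 0.14.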

How the results depend on the processing

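Of 320 alternative values for the correlations of single pairs, 289 moved by less than 0.25, the SD of r over the 10 pairs, and 307 kept their sign. Of 1770 alternative values for the differences of the 5 genes, 1740 moved by less than the SD between replicates and 1696 kept their sign. For PPP1R15A that SD includes the floor value of -6.26 and is wide, so large moves can count as small. Most alternatives in both counts leave out 1 array and share nearly all arrays with the main result, so small moves were likely. In the CD27 comparison over all 4 subsets all 5 stayed above 0 under these alternatives, with ranges of 0.82 to 2.60 for NR4A2, 0.031 to 1.77 for ATF3, 0.27 to 1.57 for ZFP36, 0.57 to 1.36 for KLF6 and 1.20 to 2.41 for PPP1R15A. On slide 3, which holds only double positives and CD11b single positives, KLF6 was at -0.32. The mean r of the 10 pairs was 0.83 within slide 1 and 0.23 among CD27lo arrays, and leaving out 1 array gave 0.45 to 0.52.

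Counts of genes passing moved as follows. Array weights gave 7 (CD27 against CD11b single positives), 2 (CD27 single positives against double-low), 3793 (double positives against double-low), 1 (CD11b single positives against double-low), 4383 (CD27), 6 (CD11b) and 5833 (NK against B). Normexp, run on the spot median since the files hold no spot mean, gave 1 (CD27 single positives against double positives), 3 (double positives against double-low) and 1 (CD27). Median scaling gave 1 each for double positives against double-low, CD27 and CD11b, and a random donor label 1 for double positives against double-low. Testing every probe gave 1 for CD27 single positives against double positives, 14 for CD11b and 1824 for NK against B. For CD11b, leaving out the 2 dim arrays gave 1, and a slide block or a donor label block gave 0. A slide block gave 600 for NK against B.

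Replicate numbers were not taken as pairs, since the labels name no animal and not every same-numbered pair correlated above 0.1: 17 of 25 did (median 0.22), against 22 of 96 pairs with different numbers (median -0.067). Same-numbered arrays were thus more alike on average. The SEs and p-values of the main fit nevertheless treat all arrays as independent. The replicate block gave 1 gene for CD11b, and with the 2 dim arrays also left out (chosen after seeing the data, like the donor label and CD27 splits) 0 for CD11b and 728 for NK against B. It left the CD27 difference of NR4A2 at 1.91. Leaving out 1 array gave 0 to 1 gene for CD27, for CD27 against CD11b single positives and for CD27 single against double positives, 0 to 4 for double positives against double-low, 1 to 4 for CD11b and 64 to 719 for NK against B. The dim double-low replicate 4 limits KLF6 and PPP1R15A most.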
